A study of Homo sapiens with 192 samples.

Results

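The glycolysis, glucose uptake and lactate transport genes were followed in 4 human colorectal cancer (CRC) cell lines grown in 2D and in 3D. The list held 32 genes, named for their place along the pathway, out of 58243 gene identifiers in the count tables. All 32 were found by matching Ensembl identifiers to symbols, and 31 of them were among the 19387 genes that passed the filter on low counts. SLC2A3 was the member that did not pass.

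The established lines HT29, LS513, HCT116 and LS174T, all derived from human colorectal carcinoma, were each sequenced from 3 libraries in 2D and 3 libraries in 3D, which makes 24 libraries in 8 groups. No group carried a drug or a genetic change, so growth in 2D or 3D was the labelled difference within a line. HT29, LS513 and LS174T were kept in DMEM and HCT116 in McCoy medium, all with 5% serum, so HCT116 cannot be told apart from its medium. The study grew spheroids for other assays, and how long the cells of these libraries stayed in 3D is not given in the sources used here. Each line is a single culture model, and the labels do not say that the 3 libraries of a group came from separate cultures, so p-values measure the spread between these libraries, which may be technical.

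Glycolysis converts glucose to pyruvate. Glucose enters through GLUT transporters, is trapped by hexokinases and is committed to the pathway by phosphofructokinase, whose activator fructose 2,6-bisphosphate is made and removed by the PFKFB enzymes. Pyruvate is then either reduced to lactate by lactate dehydrogenase and exported by monocarboxylate transporters, or oxidised in mitochondria by pyruvate dehydrogenase, which the PDK kinases switch off. Colorectal tumours are known for high glucose uptake and lactate output, and many genes of the pathway are textbook targets of hypoxia-inducible factor (HIF).

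More members were higher in 3D than lower in each of the 4 lines. A gene was called when the Benjamini-Hochberg adjusted p of the edgeR quasi-likelihood test, adjusted over all 19387 tested genes, was under 0.05. In HT29, 16 of 31 tested members were called higher in 3D and 4 lower, where 21.1% and 19.6% of all tested genes were called in those directions. In LS513 the counts were 20 higher and 1 lower, against 13.7% and 9.9% of all tested genes. HCT116 had 18 higher and 1 lower, against 16.8% and 12.3%. LS174T had 21 higher and 1 lower, against 13.1% and 9.15%. The median log2 fold change of the tested members was 0.28 in HT29, 0.67 in LS513, 0.70 in LS174T and 0.44 in HCT116, and the median over all tested genes lay between 0.000 and 0.016 in the 4 lines. In either direction 20, 21, 19 and 22 members were called in HT29, LS513, HCT116 and LS174T, against 40.7%, 23.6%, 29.1% and 22.2%. With a further cutoff of 1 on the absolute log2 fold change, 3, 9, 6 and 10 members were higher and 0 lower, against 8.58%, 4.86%, 6.28% and 4.11% of all tested genes higher and 3.81%, 1.2%, 0.944% and 1.11% lower. For the mean growth effect over the 4 lines, 25 members were called higher and 3 lower, against 26.6% and 23.9% of all tested genes.

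Of these genes 10 rose in all 4 lines, from phosphofructokinase down to lactate export and the control of pyruvate oxidation. They were PFKL, PFKFB4, ALDOC, TPI1, PGK1, PGAM1, ENO2, LDHA, SLC16A3 and PDK1. The set is not fixed, since calls of PFKL, TPI1, ENO2 and SLC16A3 in some lines were lost when a single library was left out. Those calls are given below with each gene. Among all tested genes, 608 rose in all 4 lines, which is 3.14%. A further 7 members, SLC2A1, GPI, PFKP, ALDOA, GAPDH, ENO1 and PKM, rose in LS513, HCT116 and LS174T and were not called higher in HT29, a pattern shown by 0.743% of all tested genes. HK1, ENO3 and LDHB were called in no single line, though HK1 and ENO3 were called higher for the mean over the 4 lines. ENO1 was the member called in both directions, lower in HT29 and higher in the other 3 lines.

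**Figure D1:**
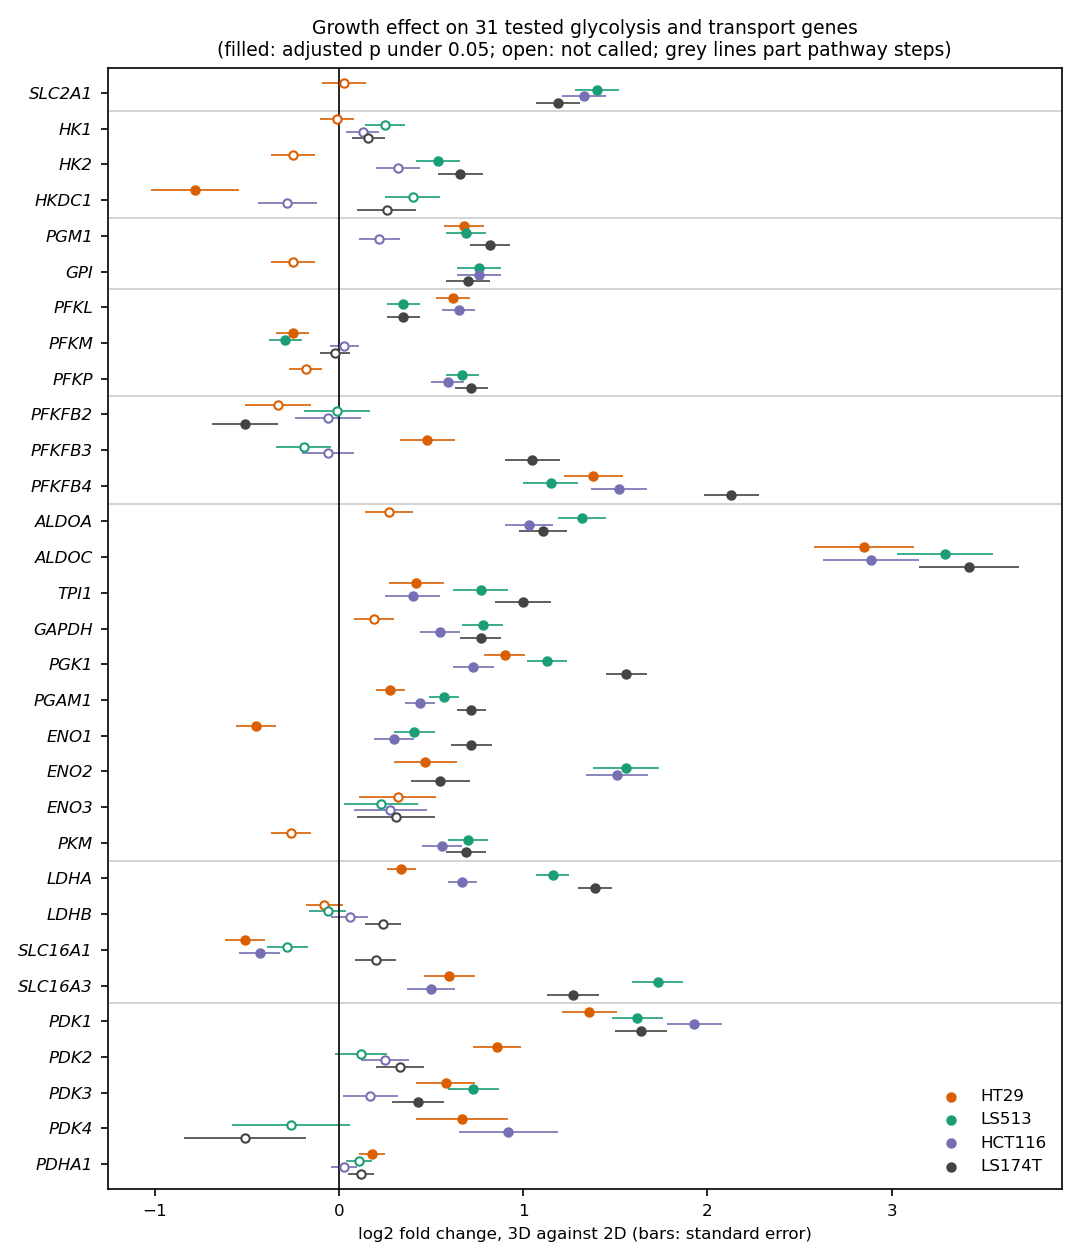
Log2 fold change of 3D against 2D growth (x axis, with its standard error) for the 31 tested members (y axis, ordered along the pathway) in HT29, LS513, HCT116 and LS174T. ALDOC lay furthest to the right in every line, between 2.85 and 3.42, and HT29 points for SLC2A1, GPI, PFKP, ENO1 and PKM sat near or left of 0 while the other 3 lines sat to the right.

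The members together held a larger share of all counts in 3D than in 2D in LS513, HCT116 and LS174T. In LS513 their share was 1.4% ± 0.0122 (SD, n = 3) in 2D and 2.2% ± 0.169 in 3D. HCT116 went from 2.24% ± 0.133 to 3.04% ± 0.157, and LS174T from 1.6% ± 0.0801 to 2.59% ± 0.157, with no overlap between growth conditions in these 3 lines. In HT29 the share was 2.12% ± 0.0918 in 2D and 2.22% ± 0.138 in 3D, and the libraries overlapped. RNA from a whole culture does not tell whether fewer cells used a gene or each cell held less of its RNA, so these 2 readings cannot be told apart anywhere below.

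SLC2A1 encodes GLUT1, the widespread basal glucose transporter, and lies on the minus strand at chr1:42925375-42959176 (GRCh38). Levels are given as CPM, the count scaled to the size of the library with TMM factors, library by library in replicate order. In HT29 SLC2A1 stood at 846, 925 and 774 CPM in 2D and 999, 745 and 861 CPM in 3D, and the 2 sets overlapped. LS513 held 439, 383 and 369 CPM in 2D and 1172, 1050.1 and 927 CPM in 3D. HCT116 showed 96.1, 86 and 87.6 CPM in 2D and 244, 245 and 188 CPM in 3D, and LS174T 81.6, 71.6 and 75.7 CPM in 2D and 168, 192 and 163 CPM in 3D. All 3D libraries of LS513, HCT116 and LS174T were above all 2D libraries of the same line. The rise was 2.64-fold in LS513, 2.51-fold in HCT116 and 2.28-fold in LS174T (log2 fold changes 1.40 ± 0.12, 1.33 ± 0.12 and 1.19 ± 0.12, SE, with edgeR adjusted p of 1.7e-08, 4.1e-08 and 4.0e-07). In HT29 the log2 fold change was 0.03 ± 0.12 (adjusted p = 0.88).

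SLC2A3, which encodes the high-affinity transporter GLUT3 best known from neurons, was close to absent. It was at 0 in all HT29 libraries and in the 2D libraries of LS513, and its highest value in any library was 0.392 CPM, in HCT116 grown in 3D. The limit that a count of 0 allows, taken as 3 counts, was 0.0875 to 0.16 CPM in these libraries, so a count of 0 leaves room for a level up to that limit. Values below that range rest on few counts, as with 0.0346 CPM in LS513 3D replicate 3, from a count of 1. In addition, 13% of the 75-base windows of its transcript are shared with SLC2A14, and reads from these were removed upstream as aligning more than once.

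**Figure D2:**
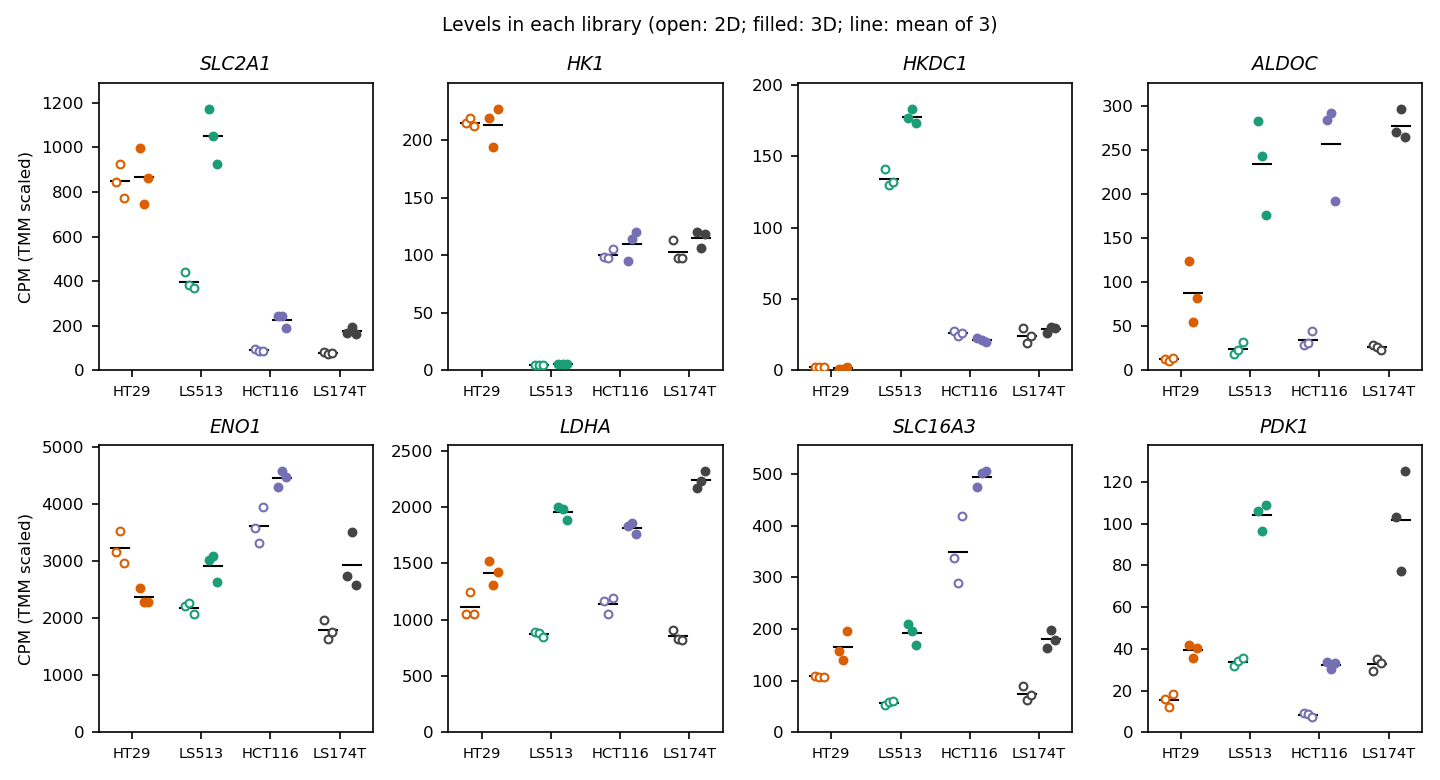
CPM in each library (y axis, from 0) for 8 members by line (x axis), with open points for 2D, filled points for 3D and a line at the mean of 3. SLC2A1 was at 745 CPM or more in all HT29 libraries, HK1 was at 5.74 CPM or less in all LS513 libraries, and ALDOC, LDHA, SLC16A3 and PDK1 separated 3D from 2D in every line.

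Of the hexokinases, which phosphorylate glucose so that it stays in the cell, HK1 and HKDC1 set LS513 apart from the other lines. HK1, the ubiquitous isozyme, was held at 4.63, 4.32 and 4.82 CPM in 2D and 5.74, 5.36 and 5.3 CPM in 3D in LS513. The other lines held far more of it, with 215, 219 and 212 CPM in 2D and 219, 194 and 227 CPM in 3D in HT29 and values from 94.8 to 120.4 CPM in HCT116 and LS174T. LS513 instead held high HKDC1, the hexokinase domain-containing homologue, at 141, 129.7 and 132 CPM in 2D and 177, 183 and 173 CPM in 3D. HKDC1 stood at 2.54, 2.13 and 2.57 CPM in 2D and 0.905, 1.07 and 2.29 CPM in 3D in HT29 and between 18.8 and 30.4 CPM in HCT116 and LS174T. Levels in 2D differed between lines with edgeR adjusted p of 5.6e-21 for HK1 and 2.0e-17 for HKDC1. This held for all 31 tested members, where 91.7% of all tested genes differed between lines in 2D. Growth did not pass the test for HK1 in any single line, with log2 fold changes between -0.01 and 0.25. In LS513 every 3D library of HK1 lay above every 2D library. For the mean growth effect over the 4 lines HK1 was called higher (0.13 ± 0.05, SE, edgeR adjusted p = 0.022). HKDC1 fell by 0.78 on the log2 scale in HT29 (adjusted p = 0.012), where it is near 2 CPM, and this call was lost without 2D replicate 1, 3D replicate 1 or 3D replicate 3 (adjusted p of 0.059, 0.12 and 0.088) and with the 6 HT29 libraries alone (adjusted p = 0.074). In LS513, where HKDC1 was abundant, every 3D library lay above every 2D library with a log2 fold change of 0.40 ± 0.15 (adjusted p = 0.062). That value passed with DESeq2 (adjusted p = 0.021), with all genes kept (adjusted p = 0.015) and with the 6 LS513 libraries alone (adjusted p = 0.0025).

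HK2, the inducible isozyme of tumour and muscle cells, had 202, 197 and 198 CPM in 2D and 307, 256 and 304 CPM in 3D in LS513 and 143, 127 and 133 CPM in 2D and 219, 172 and 245 CPM in 3D in LS174T. In HT29 its values were 91.7, 91.9 and 98.4 CPM in 2D and 74.6, 72.4 and 89.5 CPM in 3D, and in HCT116 145, 129.5 and 105 CPM in 2D and 142, 169 and 162 CPM in 3D. It rose 1.45-fold in LS513 and 1.58-fold in LS174T (adjusted p of 0.0022 and 5.8e-04). The HCT116 libraries overlapped, with a log2 fold change of 0.32 ± 0.12 (adjusted p = 0.052, and 0.026 without 2D replicate 1). All HT29 3D libraries lay below the 2D libraries, with -0.25 ± 0.12 (adjusted p = 0.1). The HT29 value passed with the 6 HT29 libraries alone (edgeR adjusted p = 0.042), and the HCT116 value with DESeq2 (adjusted p = 0.036). Some HK2 reads are uncertain, as 4.37% of its 75-base windows occur in the pseudogene HK2P1.

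Phosphoglucomutase 1 (PGM1), which links glucose 6-phosphate to glycogen, and glucose-6-phosphate isomerase (GPI), the next enzyme of glycolysis, followed different lines. PGM1 stood at 37.1, 33.8 and 38.1 CPM in 2D and 70.5, 47.1 and 57.3 CPM in 3D in HT29 and at 51.8, 49.5 and 61.6 CPM in 2D and 89.2, 86 and 86.6 CPM in 3D in LS513. In LS174T it had 54.4, 57.8 and 54.5 CPM in 2D and 92.4, 109 and 93.3 CPM in 3D, and in HCT116 74.4, 77.9 and 81.9 CPM in 2D and 91.1, 93.7 and 87.6 CPM in 3D. It rose 1.61-fold in HT29, 1.61-fold in LS513 and 1.77-fold in LS174T. The 1.16-fold difference in HCT116 did not pass (adjusted p = 0.15), though its libraries did not overlap. GPI had 573, 586 and 605 CPM in 2D and 1069.6, 979 and 931 CPM in 3D in LS513 and 889, 843 and 879.7 CPM in 2D and 1549.6, 1712 and 1160.0 CPM in 3D in HCT116. LS174T held 809.7, 787 and 821 CPM in 2D and 1321, 1332 and 1269 CPM in 3D, and HT29 1329, 1439.8 and 1359.9 CPM in 2D and 1389, 956 and 1117 CPM in 3D. GPI rose 1.69-fold in LS513, 1.69-fold in HCT116 and 1.62-fold in LS174T. In HT29 the log2 fold change was -0.25 ± 0.12 (adjusted p = 0.091), and without 3D replicate 1 it was -0.38 (adjusted p = 0.018), a lower call.

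The 3 phosphofructokinase subunits, which form the committed step of glycolysis, went apart. The liver-type subunit PFKL rose in all 4 lines, with 112, 101 and 108 CPM in 2D and 179.5, 154 and 160.2 CPM in 3D in HT29 and 340.2, 332 and 323 CPM in 2D and 407, 468 and 393 CPM in 3D in LS174T. It held 320.3, 313 and 345 CPM in 2D and 434, 441 and 368 CPM in 3D in LS513 and 137, 130.3 and 137 CPM in 2D and 218, 229 and 188 CPM in 3D in HCT116. The rise was 1.54-fold in HT29, 1.27-fold in LS513, 1.57-fold in HCT116 and 1.27-fold in LS174T. The smaller of these calls were lost when a single library was left out, in LS513 without 3D replicate 1 or 2 (adjusted p of 0.053 and 0.061) and in LS174T without 3D replicate 2 (adjusted p = 0.059). The platelet-type subunit PFKP had 145, 139.9 and 148 CPM in 2D and 239, 237 and 213 CPM in 3D in LS513 and 345, 289 and 334 CPM in 2D and 473, 506 and 473 CPM in 3D in HCT116. It stood at 97.9, 83.1 and 89.2 CPM in 2D and 144, 160.0 and 140.0 CPM in 3D in LS174T and at 289, 309 and 284 CPM in 2D and 255, 237 and 289 CPM in 3D in HT29. PFKP rose 1.59-fold, 1.5-fold and 1.64-fold in LS513, HCT116 and LS174T and had a log2 fold change of -0.18 ± 0.09 in HT29 (adjusted p = 0.12).

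The muscle-type subunit PFKM moved the other way where it moved. It had 119.8, 130.4 and 122 CPM in 2D and 102, 101 and 109.5 CPM in 3D in HT29 and 142, 140.3 and 132 CPM in 2D and 114, 111 and 114 CPM in 3D in LS513, with every 3D library below every 2D library. In HCT116 it stood at 192, 199 and 195 CPM in 2D and 184, 205 and 209 CPM in 3D and in LS174T at 139, 131 and 139 CPM in 2D and 127, 157 and 119 CPM in 3D, with overlap in both. The log2 fold change was -0.25 in HT29 (adjusted p = 0.021) and -0.29 in LS513 (adjusted p = 0.014). Both calls were fragile: in HT29 the call was lost without 2D replicate 1, 2 or 3 or 3D replicate 1 or 3 (adjusted p of 0.08, 0.17, 0.066, 0.12 and 0.14), and in LS513 without 2D replicate 1 or 2 or 3D replicate 2 (adjusted p of 0.059, 0.055 and 0.053). The antisense gene SENP1 overlaps 8.58% of PFKM exon sequence, and the strand setting used for counting is not given in the sources used here.

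PFKFB4, a bifunctional enzyme that sets fructose 2,6-bisphosphate and lies at chr3:48517684-48562015 on the minus strand, rose in all 4 lines. It had 10.4, 9.91 and 8.6 CPM in 2D and 26.7, 18.2 and 31 CPM in 3D in HT29 and 39.5, 46.9 and 46 CPM in 2D and 109.8, 103 and 82 CPM in 3D in LS513. HCT116 held 24.2, 25.5 and 25.1 CPM in 2D and 71.8, 82.1 and 61.5 CPM in 3D, and LS174T 17.2, 16.5 and 16.5 CPM in 2D and 74.9, 63.5 and 80.6 CPM in 3D. The lowest 3D library was above the highest 2D library in each line. The rise was 2.61-fold in HT29, 2.22-fold in LS513, 2.88-fold in HCT116 and 4.36-fold in LS174T (adjusted p from 5.3e-06 to 2.4e-09).

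PFKFB3, an inducible isozyme in which the kinase activity prevails, was called in 2 lines. In LS174T it had 55.2, 47.1 and 50.1 CPM in 2D and 117, 79.9 and 119 CPM in 3D, a 2.07-fold rise (adjusted p = 2.3e-05). HT29 showed 44.9, 45.2 and 47.4 CPM in 2D and 81.3, 47.7 and 62.2 CPM in 3D, a 1.39-fold rise (adjusted p = 0.012) that was lost without 3D replicate 1 (adjusted p = 0.11). LS513 had 57.5, 54.4 and 60.4 CPM in 2D and 47.7, 52.9 and 50.3 CPM in 3D, with every 3D library below every 2D library and adjusted p = 0.39, and HCT116 89.2, 79.4 and 79.5 CPM in 2D and 80.3, 84.6 and 73.6 CPM in 3D, with overlap. PFKFB2, the heart-type isozyme, stood at 38.1, 41.5 and 41.6 CPM in 2D and 31.7, 16.4 and 36.9 CPM in 3D in LS174T, where 3D replicate 2 was the lowest library. Its 0.703-fold level there passed the test (adjusted p = 0.041) and did not pass without that library (log2 fold change -0.23, adjusted p = 0.23) or without 2D replicate 1, 2 or 3 (adjusted p of 0.068, 0.1 and 0.11). In the other 3 lines PFKFB2 lay between 19.7 and 38.6 CPM and was not called. With the 6 HT29 libraries alone it passed as lower in HT29 (-0.32, edgeR adjusted p = 0.023).

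ALDOC, the brain-type aldolase at chr17:28573115-28577264 on the minus strand, had the highest fold change of the members in every line. Its values were 12.5, 10.5 and 13.3 CPM in 2D and 124, 54.5 and 82.3 CPM in 3D in HT29 and 17.8, 22.5 and 31.5 CPM in 2D and 282, 243 and 176 CPM in 3D in LS513. HCT116 held 28.8, 30.5 and 44.4 CPM in 2D and 284, 292 and 192 CPM in 3D, and LS174T 28.5, 25.8 and 23.4 CPM in 2D and 270.2, 296 and 264 CPM in 3D. Every 3D library stood several times above the 2D libraries of its line, and within 3D the libraries also spread widely, as in HT29. The fold change was 7.23 in HT29, 9.76 in LS513, 10.7 in LS174T and 7.42 in HCT116 (log2 fold changes 2.85 ± 0.27, 3.29 ± 0.26, 3.42 ± 0.27 and 2.89 ± 0.26, SE, with adjusted p from 6.2e-08 to 1.1e-08). The test of a difference between lines did not pass (adjusted p = 0.51).

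ALDOA, the main glycolytic aldolase, was far more abundant and rose in 3 lines. It had 1148, 1174 and 1203 CPM in 2D and 3177, 3217 and 2395 CPM in 3D in LS513 and 1626, 1518 and 1904 CPM in 2D and 3732, 3782 and 2823 CPM in 3D in HCT116. LS174T held 1170.2, 1048 and 1109 CPM in 2D and 2239, 2806 and 2115 CPM in 3D, and HT29 1689, 1841 and 1639 CPM in 2D and 2359, 1865 and 1996 CPM in 3D. The rise was 2.49-fold in LS513, 2.05-fold in HCT116 and 2.15-fold in LS174T. In HT29 the 3D libraries lay just above the 2D libraries, but the log2 fold change of 0.27 ± 0.13 did not pass (adjusted p = 0.11) and passed without 3D replicate 3 (0.39, adjusted p = 0.044). The HT29 value of ALDOA also passed with all genes kept (edgeR adjusted p = 0.023) and with the 6 HT29 libraries alone (0.042). Antisense genes overlap 13.3% of ALDOA and 10.1% of ALDOC exon sequence.

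Triosephosphate isomerase (TPI1), which keeps the 2 triose phosphates in balance, rose in all 4 lines. It had 1136, 1185 and 1065 CPM in 2D and 1469, 1537 and 1518 CPM in 3D in HT29 and 849, 834 and 822 CPM in 2D and 1478, 1606 and 1187 CPM in 3D in LS513. HCT116 held 1045, 982 and 1195 CPM in 2D and 1295, 1418 and 1525 CPM in 3D, and LS174T 732, 668 and 687 CPM in 2D and 1162, 1915 and 1101 CPM in 3D, where 3D replicate 2 stood well above the other 2. The rise was 1.34-fold in HT29, 1.7-fold in LS513, 2-fold in LS174T and 1.32-fold in HCT116. The HCT116 call (adjusted p = 0.045) was lost without any 1 of the 6 HCT116 libraries but 2D replicate 3 (adjusted p from 0.057 to 0.17), and the HT29 call (adjusted p = 0.025) without 2D replicate 3 (adjusted p = 0.065). The pseudogene TPI1P1 shares 12.5% of its 75-base windows.

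GAPDH, which makes NADH in the first oxidative step and is often used as a reference gene, was not stable between growth conditions. Its values were 2832, 2966 and 2955 CPM in 2D and 5262, 5394 and 4363 CPM in 3D in LS513 and 6234, 6109 and 7044 CPM in 2D and 9765, 9843 and 8689 CPM in 3D in HCT116. LS174T had 3786, 3446 and 3621 CPM in 2D and 5811, 7218 and 5419 CPM in 3D, and HT29 4095, 4575 and 4096 CPM in 2D and 5418, 4329.8 and 4828 CPM in 3D. It rose 1.72-fold, 1.46-fold and 1.7-fold in LS513, HCT116 and LS174T. In HT29 the log2 fold change was 0.19 ± 0.11 (adjusted p = 0.18), and 0.32 without 3D replicate 3 (adjusted p = 0.046). The antisense gene AC006064.4 overlaps 14.2% of GAPDH exon sequence.

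PGK1, the first ATP-forming enzyme of the pathway, lies on the plus strand of the X chromosome and rose in every line. HT29 had 880.3, 931 and 867 CPM in 2D and 1723, 1626 and 1651 CPM in 3D, and LS513 449, 441 and 422 CPM in 2D and 1022, 1037 and 818 CPM in 3D. In HCT116 it stood at 575, 560.4 and 636 CPM in 2D and 898, 963 and 1073 CPM in 3D and in LS174T at 531, 477 and 482 CPM in 2D and 1305, 1755 and 1345 CPM in 3D. The rise was 1.87-fold in HT29, 2.19-fold in LS513, 1.66-fold in HCT116 and 2.96-fold in LS174T (adjusted p from 2.8e-05 to 1.5e-09). Phosphoglycerate mutase 1 (PGAM1) rose less, by 1.22-fold in HT29, 1.49-fold in LS513, 1.36-fold in HCT116 and 1.65-fold in LS174T. Its values were 57.3, 59 and 50.6 CPM in 2D and 66.4, 65.6 and 71.5 CPM in 3D in HT29 and 57.7, 57.7 and 54.3 CPM in 2D and 90.4, 86.6 and 75.7 CPM in 3D in LS513. HCT116 had 97.4, 91.6 and 98.9 CPM in 2D and 127, 129 and 134 CPM in 3D, and LS174T 67.1, 64.6 and 69.1 CPM in 2D and 106, 121 and 104 CPM in 3D. PGAM1 levels are uncertain, since 39.8% of its 75-base windows occur at other loci, PGAM4 among them.

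Enolase 1 (ENO1), the main enolase of proliferating cells, was called lower in HT29 and higher in the other 3 lines. It had 3155, 3529 and 2969 CPM in 2D and 2518, 2281 and 2287 CPM in 3D in HT29 and 2219, 2258 and 2077 CPM in 2D and 3016, 3089 and 2627 CPM in 3D in LS513. HCT116 held 3573, 3305 and 3952 CPM in 2D and 4298, 4567 and 4469 CPM in 3D, and LS174T 1961, 1641 and 1755 CPM in 2D and 2729, 3504 and 2578 CPM in 3D. All 3D libraries lay below the 2D libraries in HT29 and above them in the other 3 lines. ENO1 fell by 0.45 on the log2 scale in HT29 (adjusted p = 0.0026) and rose 1.33-fold in LS513, 1.23-fold in HCT116 and 1.64-fold in LS174T (adjusted p of 0.008, 0.043 and 8.2e-05). The HCT116 call was lost with 5 of its 6 libraries left out in turn, all but 2D replicate 3 (adjusted p from 0.083 to 0.18), and the LS513 call without 3D replicate 2 (adjusted p = 0.051).

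The neuronal enolase ENO2 rose in all 4 lines from a much lower level. Its values were 42.2, 45.7 and 35 CPM in 2D and 58.3, 51.4 and 60.5 CPM in 3D in HT29 and 10.6, 10.2 and 9.22 CPM in 2D and 34, 31.7 and 22.7 CPM in 3D in LS513. HCT116 had 23, 24.7 and 27.4 CPM in 2D and 87.1, 79.5 and 46.6 CPM in 3D, and LS174T 97.7, 91.1 and 88.9 CPM in 2D and 138, 136 and 133 CPM in 3D. The rise was 2.94-fold in LS513 and 2.84-fold in HCT116, and 1.38-fold in HT29 and 1.47-fold in LS174T. The smaller calls depended on single libraries: that of HT29 was lost without 2D replicate 3, 3D replicate 1 or 3D replicate 4 (adjusted p of 0.1, 0.056 and 0.061), and that of LS174T without 2D replicate 2 or 3 (adjusted p of 0.058 and 0.066). The muscle enolase ENO3 lay between 3.86 and 9.79 CPM in all libraries and was called in no line, with log2 fold changes from 0.23 to 0.32. For the mean over the 4 lines it was called higher (0.29 ± 0.10, SE, edgeR adjusted p = 0.023). In HT29 it passed without 2D replicate 2 (0.65, adjusted p = 0.021).

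PKM, pyruvate kinase, was among the most abundant members. It had 2492, 2504 and 2594 CPM in 2D and 4259, 4397 and 3712 CPM in 3D in LS513 and 2319.6, 2153 and 2423 CPM in 2D and 3169.7, 3437 and 3542 CPM in 3D in HCT116. LS174T held 2694, 2164 and 2294 CPM in 2D and 3489, 4645 and 3429 CPM in 3D, and HT29 5109.9, 5072 and 4334 CPM in 2D and 4099, 4026 and 3979 CPM in 3D. It rose 1.63-fold, 1.47-fold and 1.62-fold in LS513, HCT116 and LS174T. In HT29 all 3D libraries lay below the 2D libraries, with a log2 fold change of -0.26 ± 0.11 (adjusted p = 0.064). That value passed as a lower call with library totals (edgeR adjusted p = 0.031) and with the 6 HT29 libraries alone (0.04). Counts per gene do not resolve the M1 and M2 splice forms of PKM.

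LDHA, the subunit that favours lactate formation, rose in all 4 lines while LDHB, the subunit that favours the reverse reaction, was called in none. LDHA (chr11:18394388-18408425, plus strand) had 1052, 1247 and 1050.0 CPM in 2D and 1521, 1308 and 1422 CPM in 3D in HT29 and 893, 887 and 845 CPM in 2D and 1998, 1987 and 1886 CPM in 3D in LS513. HCT116 held 1166, 1054 and 1197 CPM in 2D and 1831, 1862 and 1759 CPM in 3D, and LS174T 910.1, 829 and 820.2 CPM in 2D and 2169.6, 2228 and 2318 CPM in 3D. The groups did not overlap in any line. The rise was 1.27-fold in HT29, 2.24-fold in LS513, 1.6-fold in HCT116 and 2.62-fold in LS174T (log2 fold changes 0.34 ± 0.08, 1.16 ± 0.09, 0.67 ± 0.08 and 1.39 ± 0.09, SE, with adjusted p of 0.0025, 2.1e-09, 3.8e-06 and 2.1e-10). It differed between lines (adjusted p = 3.5e-06). LDHA shares 3.76% of its 75-base windows with other loci, its pseudogenes LDHAP2 and LDHAP4 among them.

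LDHB had 1148, 1234 and 1187 CPM in 2D and 1097, 1131 and 1145 CPM in 3D in HT29 and 399, 414 and 399.9 CPM in 2D and 381, 404 and 379 CPM in 3D in LS513. HCT116 held 1191, 1164 and 1437 CPM in 2D and 1269, 1277 and 1397 CPM in 3D, and LS174T 1067, 981 and 1018 CPM in 2D and 1110.0, 1485 and 1039 CPM in 3D. The 3D libraries overlapped the 2D libraries in LS513, HCT116 and LS174T and lay just below them in HT29. Its log2 fold changes were between -0.08 and 0.24, and in LS174T it passed without 3D replicate 3 (0.34, adjusted p = 0.017).

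The lactate exporter SLC16A3 (MCT4) and the bidirectional transporter SLC16A1 (MCT1) went in opposite directions in HT29 and HCT116. SLC16A3 had 109.6, 107 and 108 CPM in 2D and 157, 141 and 196 CPM in 3D in HT29 and 53, 59.1 and 61.4 CPM in 2D and 209, 197 and 169 CPM in 3D in LS513. HCT116, the line with the most in 2D, held 337, 289.8 and 418 CPM in 2D and 474, 502 and 505 CPM in 3D, and LS174T 89.8, 63.5 and 71.6 CPM in 2D and 163, 199 and 179 CPM in 3D. SLC16A3 rose 1.52-fold in HT29, 3.31-fold in LS513, 1.42-fold in HCT116 and 2.4-fold in LS174T. Its HCT116 call (adjusted p = 0.0067) was lost without 2D replicate 2 (adjusted p = 0.06).

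SLC16A1 had 168, 173 and 180.3 CPM in 2D and 121, 107 and 139.7 CPM in 3D in HT29 and 191, 182 and 171 CPM in 2D and 125, 129 and 149 CPM in 3D in HCT116. LS513 held 230.3, 229.5 and 239 CPM in 2D and 184, 163 and 226 CPM in 3D, and LS174T 201, 208 and 218 CPM in 2D and 239, 209.9 and 271 CPM in 3D. In HT29, LS513 and HCT116 every 3D library lay below every 2D library, and in LS174T they overlapped. SLC16A1 fell by 0.51 on the log2 scale in HT29 (adjusted p = 1.0e-03) and by 0.43 in HCT116 (adjusted p = 0.0058). In LS513 the value of -0.28 ± 0.11 missed the threshold (adjusted p = 0.068) and passed without 3D replicate 3 (-0.42, adjusted p = 0.0084), and in LS174T it was 0.20 ± 0.11 (adjusted p = 0.21). The LS513 value also passed with library totals (-0.42, edgeR adjusted p = 0.018).

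PDK1, the pyruvate dehydrogenase kinase known as a HIF target, rose in all 4 lines. Its values were 15.8, 12.1 and 18.4 CPM in 2D and 41.8, 35.7 and 40.4 CPM in 3D in HT29 and 31.9, 34.1 and 35.4 CPM in 2D and 106, 96.6 and 109 CPM in 3D in LS513. HCT116 held 9.06, 8.77 and 7.57 CPM in 2D and 33.6, 30.3 and 33 CPM in 3D, and LS174T 29.6, 35.3 and 33.1 CPM in 2D and 103, 77.5 and 125 CPM in 3D. Each lowest 3D library was well above the highest 2D library. The rise was 2.56-fold in HT29, 3.07-fold in LS513, 3.81-fold in HCT116 and 3.12-fold in LS174T (adjusted p from 3.0e-07 to 3.4e-09), and a difference between lines did not pass the test (adjusted p = 0.23).

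The other kinases of pyruvate dehydrogenase followed the growth condition less evenly. PDK3 had 4.01, 2.96 and 4.71 CPM in 2D and 6, 4.84 and 6.46 CPM in 3D in HT29 and 6.79, 6.98 and 7.54 CPM in 2D and 12.2, 11.6 and 11.5 CPM in 3D in LS513. In LS174T it stood at 15.3, 17.3 and 16.4 CPM in 2D and 20.6, 20.5 and 24.9 CPM in 3D, and in HCT116 at 5.68, 6.1 and 5.29 CPM in 2D and 5.39, 7.12 and 6.69 CPM in 3D. PDK3 rose 1.5-fold in HT29, 1.65-fold in LS513 and 1.35-fold in LS174T, and the LS174T call (adjusted p = 0.029) was lost without 2D replicate 1, 2 or 3 or 3D replicate 3 (adjusted p of 0.11, 0.053, 0.079 and 0.1). PDK2 rose in HT29, with 22.4, 19.6 and 22.1 CPM in 2D and 46.5, 35.3 and 34.8 CPM in 3D, by 1.82-fold (adjusted p = 2.7e-05). In the other 3 lines PDK2 lay between 12.8 and 52.9 CPM and was not called, and the gene shares 38.6% of its exon sequence with the antisense gene SAMD14. In LS174T it passed without 3D replicate 3 (0.39, adjusted p = 0.047).

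PDK4, the kinase induced by fasting, was at 6.94 CPM or less in all libraries. It had 3.84, 3.03 and 3.12 CPM in 2D and 6.94, 3.87 and 5.15 CPM in 3D in HT29 and 1.27, 1.7 and 1.38 CPM in 2D and 3.19, 2.61 and 2.44 CPM in 3D in HCT116. LS513 held 0.74, 0.755 and 1.36 CPM in 2D and 0.634, 0.568 and 1.18 CPM in 3D, and LS174T 0.568, 1.02 and 0.948 CPM in 2D and 0.521, 0.547 and 0.706 CPM in 3D. It rose 1.6-fold in HT29 and 1.89-fold in HCT116 (adjusted p of 0.036 and 0.013). The HT29 call was lost without 2D replicate 2, 2D replicate 3 or 3D replicate 1 (adjusted p of 0.095, 0.081 and 0.2), and the HCT116 call without 2D replicate 1 or 3D replicate 1 (adjusted p of 0.065 and 0.069). PDHA1, the E1 alpha subunit that these kinases phosphorylate, stayed within 104 to 196 CPM. It rose 1.13-fold in HT29, from 165, 163 and 165 CPM in 2D and 176, 187 and 196 CPM in 3D (adjusted p = 0.041), and was not called in the other 3 lines, and that call was lost without 2D replicate 2 or 3D replicate 4 (adjusted p of 0.052 and 0.078). The antisense gene MAP3K15 overlaps 21.3% of its exon sequence.

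Ratios of isozymes within a library do not depend on the scaling between libraries, and 9 pairs were compared. The log2 ratio of counts was averaged over the 4 lines as 3D minus 2D and tested by a two-sided exact permutation test with growth labels permuted within each line (160000 assignments, smallest possible p = 1.3e-05), adjusted over the 9 pairs. The ratio of ALDOC to ALDOA was higher in 3D by 2.17 on the log2 scale, without overlap in any line (exact permutation test, adjusted p = 2.3e-05). The ratios of SLC16A3 to SLC16A1, PDK1 to PDK2, PFKFB4 to PFKFB3 and LDHA to LDHB were higher by 1.29, 1.25, 1.23 and 0.86, each in 4 of 4 lines and each with an exact permutation adjusted p of 2.3e-05. ENO2 to ENO1 was higher by 0.76 (exact permutation test, adjusted p = 3.8e-04), with LS174T at -0.15 and the other 3 lines positive.

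The remaining pairs did not pass. HK2 to HK1 was higher by 0.18 on the log2 scale (exact permutation test, adjusted p = 0.054). The ratio of PFKP to PFKL differed by -0.04 (exact permutation test, adjusted p = 0.83), with HT29 falling from 1.46 to 0.66 on the log2 scale and LS513 and LS174T going from -1.18 to -0.85 and from -1.88 to -1.51. SLC2A1 to SLC2A3 differed by 0.06 (exact permutation test, adjusted p = 0.84), and this ratio cannot be read because SLC2A3 was near 0 counts.

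**Figure D3:**
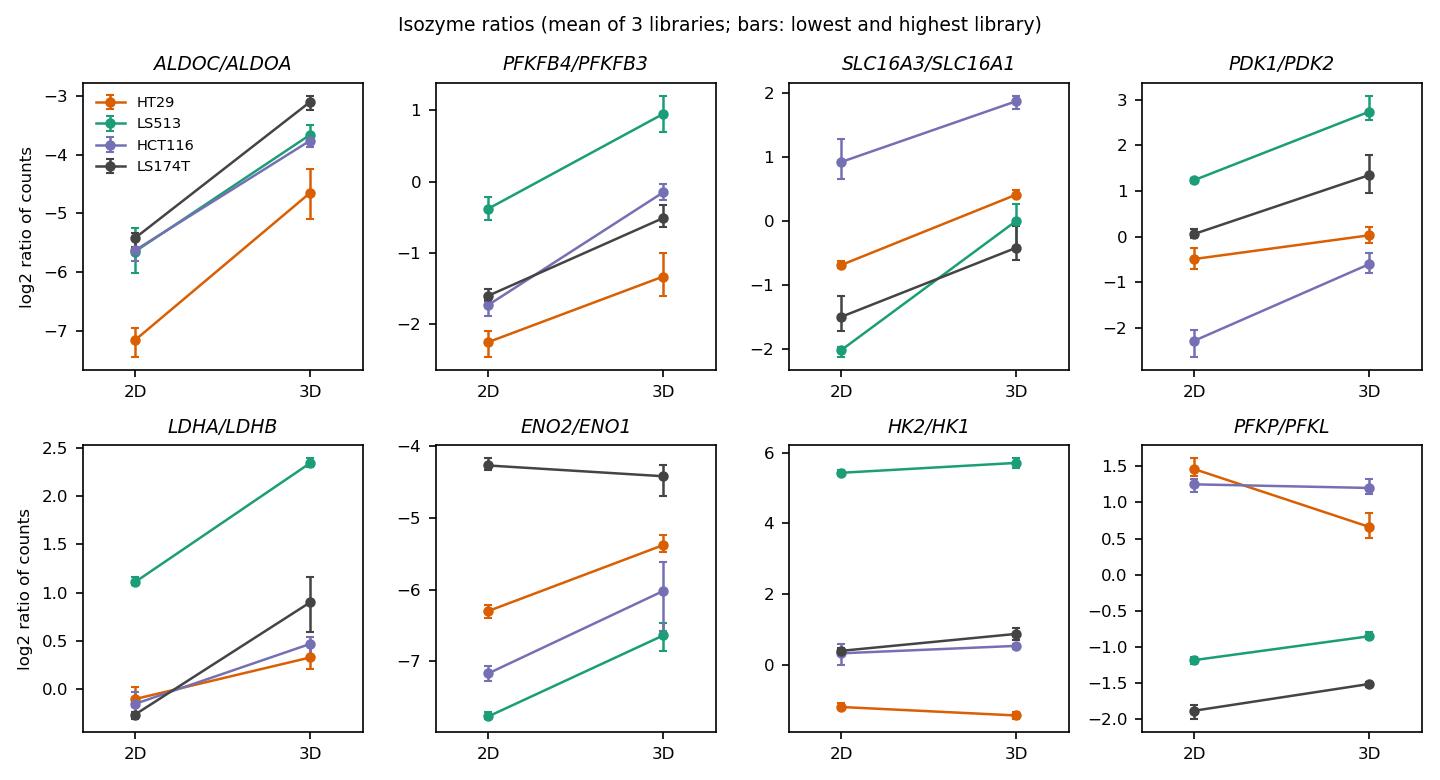
Log2 ratio of the counts of 2 isozymes (y axis) in 2D and 3D (x axis) for 8 pairs, as the mean of 3 libraries with bars from the lowest to the highest library. Lines for ALDOC/ALDOA, PFKFB4/PFKFB3, SLC16A3/SLC16A1, PDK1/PDK2 and LDHA/LDHB slope up in all 4 lines, while PFKP/PFKL falls in HT29 and rises in LS513 and LS174T.

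Per kilobase of exon, which allows levels of different genes to be compared, the makeup of several steps differed between lines and between growth conditions. HK1 made up 68% ± 1.25 (SD, n = 3) of the hexokinase level in HT29 in 2D and 1.12% ± 0.0581 in LS513, where HKDC1 made up 48.5% ± 0.818. LDHA made up 31% ± 1.48 of the lactate dehydrogenase level in HT29 in 2D and 37.7% ± 2.14 in 3D. In LS513 its share went from 51% ± 0.759 to 70.8% ± 0.724, in HCT116 from 30.3% ± 1.7 to 39.9% ± 1.95, and in LS174T from 28.6% ± 0.624 to 47.4% ± 5.01. PDK1 made up 6% ± 1.04 of the kinase level in HCT116 in 2D and 16.8% ± 1.95 in 3D, and in LS513 it went from 34.9% ± 1.1 to 56.4% ± 2.87. ALDOC stayed the minor aldolase even after its rise, at most 13.5% ± 1.03 in LS174T in 3D. With the length of the longest transcript in place of all exons, these shares moved in the same direction, and the LDHA share in LS174T in 3D was 54.3% ± 5.01, so which of the 2 subunits was ahead there depends on the length used.

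**Figure D4:**
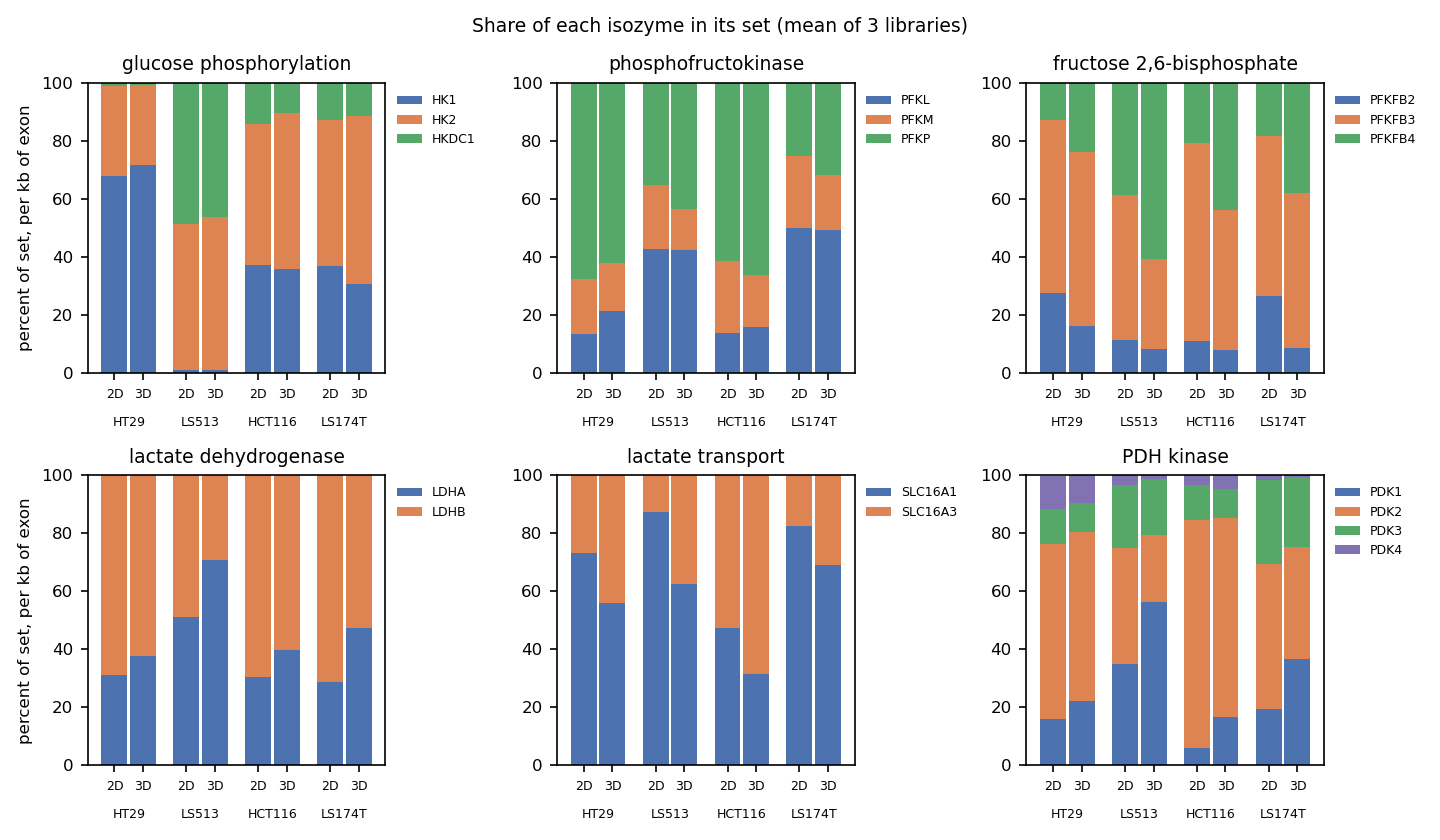
Share of each isozyme in the summed level of its set per kilobase of exon (y axis, percent, mean of 3 libraries) in 2D and 3D for each line (x axis). LS513 nearly lacks HK1, and LDHA and SLC16A3 take a larger share in 3D in all 4 lines, as does PFKFB4.

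The growth effect itself differed between lines for 20 of 31 tested members (edgeR F test of the interaction, adjusted p under 0.05), where 17.1% of all tested genes differed. The smallest adjusted p were 3.5e-06 for LDHA, 6.2e-06 for SLC2A1 and 3.1e-05 for PFKP. A contrast of HT29 with the mean of the other 3 lines, added after the values were seen, put the growth effect of 12 members lower in HT29 and of 1, PDK2, higher, where 5.33% and 3.89% of all tested genes were called, 9.23% in either direction. SLC2A1 differed most, with a difference of -1.27 ± 0.14 on the log2 scale (SE, adjusted p = 1.3e-06). GPI, ENO1, PKM and PFKP had differences of -0.99 ± 0.14, -0.92 ± 0.13, -0.91 ± 0.13 and -0.83 ± 0.10. The other members with a lower growth effect in HT29 were HKDC1, ALDOA, HK2, ENO2, LDHA, SLC16A3 and GAPDH, with differences from -0.91 to -0.51. The differences are signed and do not compare sizes. HKDC1 and ENO1 were themselves called lower in HT29, with log2 fold changes of -0.78 and -0.45. ALDOC, PFKFB4, PDK1 and PGK1 were not called in this contrast (adjusted p of 0.56, 0.54, 0.19 and 0.26).

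Promoter sequences are shown for LDHA, ALDOC, PGK1 and PFKFB4, which rose in all 4 lines, and for LDHB, which was called in none. They run from 250 bases before to 50 bases after the start of the gene in RefSeq (GRCh38.p14), 5′ to 3′ on the strand of the gene. Capitals mark ACGTG or its reverse complement CACGT, a form of the core of the element that HIF is known to bind. Other forms of that core, such as GCGTG, were not searched and are not marked. Where ACGTG and CACGT overlap as CACGTG both were counted. LDHA is at chr11:18394313-18394612 on the plus strand, ALDOC at chr17:28576846-28577145 on the minus strand, PGK1 at chrX:78103998-78104297 on the plus strand, PFKFB4 at chr3:48556754-48557053 on the minus strand and LDHB at chr12:21657793-21658092 on the minus strand.
LDHA: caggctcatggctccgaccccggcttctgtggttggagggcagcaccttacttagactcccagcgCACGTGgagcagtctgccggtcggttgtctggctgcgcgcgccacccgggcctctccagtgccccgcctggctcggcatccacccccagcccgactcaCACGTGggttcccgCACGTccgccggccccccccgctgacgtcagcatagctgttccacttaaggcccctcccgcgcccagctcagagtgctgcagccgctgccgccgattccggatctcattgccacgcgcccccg
ALDOC: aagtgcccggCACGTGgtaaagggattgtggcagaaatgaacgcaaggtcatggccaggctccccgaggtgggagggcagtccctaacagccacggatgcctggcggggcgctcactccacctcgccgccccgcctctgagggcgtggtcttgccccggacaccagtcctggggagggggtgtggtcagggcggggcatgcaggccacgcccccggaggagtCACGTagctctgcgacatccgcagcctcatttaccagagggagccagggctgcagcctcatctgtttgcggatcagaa
PGK1: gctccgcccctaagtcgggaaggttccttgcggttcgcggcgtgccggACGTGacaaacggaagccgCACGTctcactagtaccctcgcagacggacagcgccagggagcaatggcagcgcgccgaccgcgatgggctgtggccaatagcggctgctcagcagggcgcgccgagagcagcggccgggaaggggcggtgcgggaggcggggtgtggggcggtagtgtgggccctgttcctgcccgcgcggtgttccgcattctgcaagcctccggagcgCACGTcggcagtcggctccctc
PFKFB4: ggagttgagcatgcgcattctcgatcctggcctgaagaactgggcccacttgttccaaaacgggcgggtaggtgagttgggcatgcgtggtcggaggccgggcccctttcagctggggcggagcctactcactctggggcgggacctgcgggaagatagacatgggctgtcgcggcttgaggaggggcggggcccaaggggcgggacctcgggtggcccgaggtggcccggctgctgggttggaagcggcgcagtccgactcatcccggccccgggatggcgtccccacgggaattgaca
LDHB: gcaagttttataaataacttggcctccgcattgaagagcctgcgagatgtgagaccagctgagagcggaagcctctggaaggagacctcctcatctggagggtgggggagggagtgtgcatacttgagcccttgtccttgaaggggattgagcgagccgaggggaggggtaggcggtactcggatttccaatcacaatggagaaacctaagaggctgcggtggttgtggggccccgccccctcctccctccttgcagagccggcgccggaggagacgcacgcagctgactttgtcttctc

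The motif occurred 5 times in the LDHA window, 3 times in that of ALDOC, 3 times in that of PGK1 and not in those of PFKFB4 and LDHB. Of the 29 members with a promoter in the table, 9 held it, which is 31%, against 21.4% of all 35116 promoters of that length. It was found in 4 of the 10 members that rose in all 4 lines and in 5 of the other 19. HK2 and GAPDH had 2 matches each, and GPI, ALDOA, ENO2 and PDK3 had 1 each. A match is a description of these letters and not a bound site. PFKFB4 and PDK1 rose in all 4 lines without an ACGTG match in this window, where other forms of the core were not searched. PFKFB2, SLC16A1 and SLC2A3 were not matched.

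Genes next to the pathway were grouped in lists by role. Their part in the results on the glycolysis genes was not tested. Of 10 hypoxia reporters outside metabolism, 8 rose in HT29, 9 in LS513, 10 in LS174T and 10 in HCT116, and none was called lower, with median log2 fold changes of 1.35, 1.70, 2.50 and 1.92. NDRG1, a stress-responsive gene, had log2 fold changes from 3.29 to 4.36, CA9, a carbonic anhydrase at the cell surface, from 1.90 to 4.00, and ANKRD37 from 2.45 to 4.47. ANGPTL4, a secreted lipase inhibitor, was called higher in all 4 lines, but its 2D means of 0.0297 CPM in HT29 and 0.0591 CPM in LS174T were under the limit that a count of 0 allows, so no fold is given. The prolyl hydroxylases EGLN3 and P4HA1, the peptide hormone ADM and the demethylase KDM3A were also called higher in all 4 lines, and VEGFA in LS513, HCT116 and LS174T. BNIP3 was called in HCT116 and LS174T and was at or below 0.0452 CPM on average in HT29 and LS513.

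**Figure D5:**
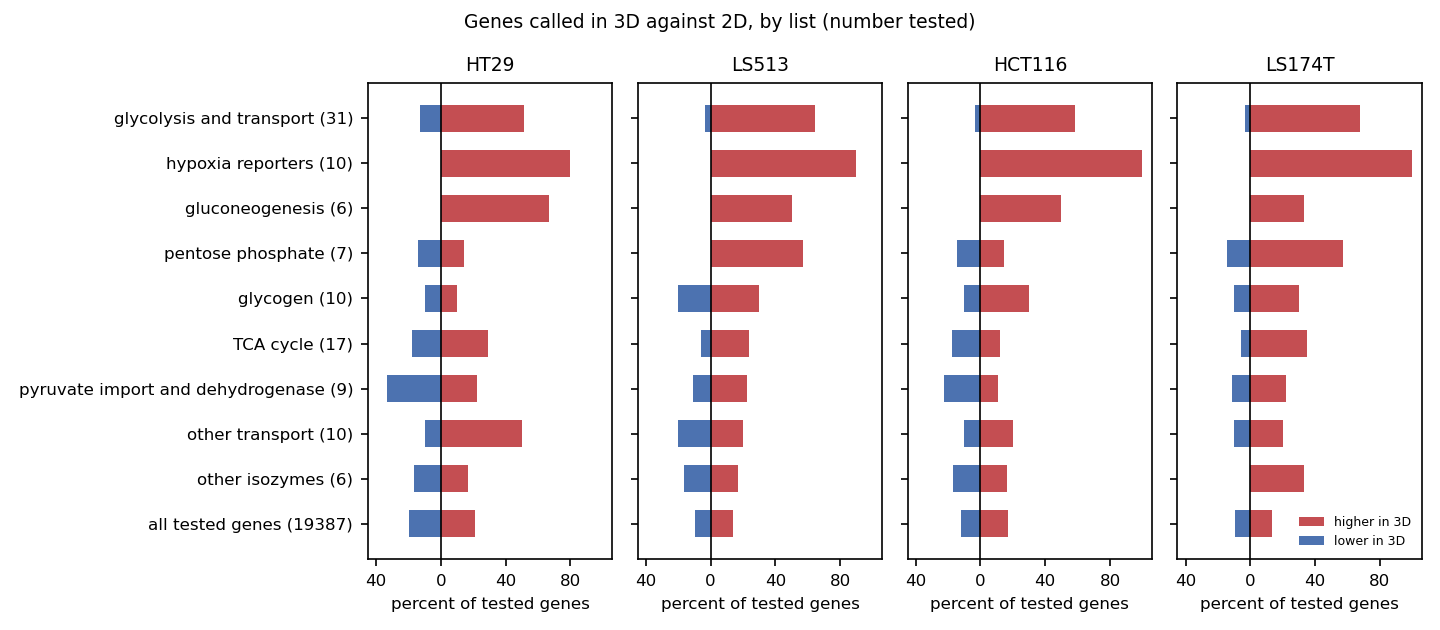
Percent of the tested genes of each list (y axis, number tested in brackets) that were called higher (right of 0) or lower (left of 0) in 3D in each line. The glycolysis and transport genes were called higher in 51.6% to 67.7% and the hypoxia reporters in 80% or more, against 13.1% to 21.1% of all tested genes.

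The neighbouring metabolic lists are given beside the background of all tested genes, which was 21.1%, 13.7%, 16.8% and 13.1% called higher and 19.6%, 9.9%, 12.3% and 9.15% called lower in HT29, LS513, HCT116 and LS174T. Of 6 tested gluconeogenesis genes, 4 rose in HT29, 3 in LS513, 2 in LS174T and 3 in HCT116, and none fell. The phosphoenolpyruvate carboxykinases were among them, PCK2 in 3 lines and PCK1 in 3, with PCK1 at 0 in HCT116. The fructose bisphosphatase FBP1 was called higher in HT29, LS174T and HCT116, but its HCT116 means of 0.0107 CPM in 2D and 0.0885 CPM in 3D were both under the limit that a count of 0 allows there. Of 7 pentose phosphate genes, 1, 4, 1 and 4 rose and 1, 0, 1 and 1 fell in HT29, LS513, HCT116 and LS174T, and the lactonase PGLS rose in all 4, with log2 fold changes from 0.57 to 0.80. Of 10 tested glycogen genes, 1, 3, 3 and 3 rose and 1, 2, 1 and 1 fell in the same order, with the liver phosphorylase PYGL higher in 3 lines.

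Of 17 TCA cycle genes, 29.4%, 23.5%, 11.8% and 35.3% rose and 17.6%, 5.88%, 17.6% and 5.88% fell in HT29, LS513, HCT116 and LS174T. For the mean growth effect over the 4 lines, 10 of the 17 were called higher and 3 lower (58.8% and 17.6%, against 26.6% and 23.9% of all tested genes). The NADP-dependent isocitrate dehydrogenase IDH2 rose in all 4 lines (log2 fold changes of 0.45 to 1.28) and the catalytic subunit IDH3A of the NAD-dependent enzyme fell in all 4 (-0.52 to -0.36). Of 9 genes of pyruvate import and dehydrogenase, 2, 2, 1 and 2 rose and 3, 1, 2 and 1 fell, and for the mean effect 3 were called in each direction. The E1 beta subunit PDHB and the pyruvate carrier MPC2 rose in 3 lines each, and the phosphatase regulator PDPR fell in 3.

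Of 15 other isozymes, 6 passed the filter on low counts, of which 1, 1, 1 and 2 rose and 1, 1, 1 and 0 fell in HT29, LS513, HCT116 and LS174T. LDHD, the D-lactate dehydrogenase, rose in all 4 lines from means of at most 4.55 CPM in 2D. Its HT29 mean in 2D, 0.0777 CPM, was under the limit that a count of 0 allows there. Of 14 other transport genes, 10 were tested, of which 5, 2, 2 and 2 rose and 1, 2, 1 and 1 fell, with the hexose transporter SLC2A6 higher in 3 lines. The LS513 mean of SLC2A6 in 2D, 0.0838 CPM, was also under the limit that a count of 0 allows there.

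Library totals ran from 18723942 to 34277421 counts. The 10 colorectal epithelium markers were all tested and summed to between 2874 and 17314 CPM per library, though HCT116 held almost no VIL1, CDX1, CDH17 or LGALS4. In HT29, LS513, HCT116 and LS174T, 5, 6, 3 and 4 of the 10 were called higher and 1, 0, 0 and 0 lower. Among all tested genes 21.1%, 13.7%, 16.8% and 13.1% were called higher and 19.6%, 9.9%, 12.3% and 9.15% lower. KRT20 and LGALS4 were higher in all 4 lines and CDX2 in 3. Of 8 markers of leukocytes, endothelium and fibroblasts, CD3E and COL1A2 were at 0 in all libraries and PTPRC was at or under 0.0688 CPM, and the 8 summed to between 0.389 and 23.2 CPM. Among the 5 of them that were tested, 1, 1, 1 and 0 were called higher in the same order and none lower. These are 20%, 20%, 20% and 0%, beside the shares of all tested genes given above. The part of these markers in the results was not tested. In LS174T grown in 3D, replicate 2 was the highest of its 3 libraries for 17 of 31 members and for 41.1% of all tested genes, and without it 20 members were called higher in that line. LS174T 2D replicate 1 was the highest for 19 of 31 members and for 39.7% of all tested genes. HT29 3D replicate 3 was the highest for 2 of 31 members and for 32% of all tested genes. Without that library 18 members were called higher in HT29, against 16 with all libraries. The 3D libraries of HT29 carry the numbers 1, 3 and 4, in which order their values are given.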

How the data were processed

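RNA was sequenced from 24 libraries of 4 CRC lines in 2D and 3D (TruSeq Stranded mRNA, single 75-base reads). Per the submitters' processing notes, reads were converted with bcl2fastq 2.18.0.12, trimmed with Trim Galore 0.4.1, aligned with STAR, with multi-mapping reads removed, and counted per gene with HTSeq 0.5.3. The deposited values are raw counts per Ensembl gene, one table for each technical replicate. The notes name hg19 while the methods name Ensembl release 91, and coordinates here are from GENCODE 29 (GRCh38). The strand option of the counting is not given in the sources used here.

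Technical replicates were summed to 1 library, 8 for each library and 7 for HT29 3D replicate 4. Totals were 18723942 to 34277421 counts, with a median of 30777613. A count of 0 allows up to 3 counts, which covers counting error only. Genes were filtered with filterByExpr, scaled by TMM and fitted in 1 model of 8 groups with the quasi-likelihood test of edgeR 4.0.16 in R 4.3.3, adjusted over all tested genes by the Benjamini-Hochberg method. Isozyme ratios were log2 ratios of count + 0.5 under an exact permutation test. Alternatives were DESeq2 1.42.0, other scalings and filters, a replicate block, single lines and libraries left out, and a fold cutoff. Scripts were tested on simulated data.

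The members and lists were chosen with earlier results of these data known. Members called in at least 2 lines, and those with the highest and lowest fold change of each step, are given in every library, and other pathway genes are named when called in the same direction in at least 3 of 4 lines. A gene that met this rule is not reported here. The contrast of HT29 with the other lines and the longest-transcript length were chosen after seeing the data.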

Additional observations from a re-analysis of the deposited data

Results flagged for a closer look

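The growth effect differed between the 4 lines for 20 members by an interaction test in edgeR, which is what brought them here. The adjusted p were 3.5e-06 for LDHA, 6.2e-06 for SLC2A1, 3.1e-05 for PFKP, 6.0e-05 for ENO1, 1.1e-04 for SLC16A3, 1.4e-04 for GPI, 1.7e-04 for PKM and 3.2e-04 for PFKFB3. ENO2 had an adjusted p of 9.7e-04, ALDOA 0.0013, PGK1 0.0016, HK2 0.0021, SLC16A1 0.0087, PFKFB4 0.01 and HKDC1 0.011 in the same edgeR test. The adjusted p of GAPDH was 0.027, that of PDK2 0.028, that of PGM1 0.032, that of PDK4 0.036 and that of PGAM1 0.048. The causes of these differences were not tested.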

How the results depend on the processing

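The replicate numbers did not pair the libraries (correlations of same-numbered libraries from -0.20 to 0.17). With the replicate block, 9 members were called higher and 2 lower in HT29 and 0 lower in LS513, and 0 had a higher growth effect in HT29 than in the other lines. HT29 2D replicate 2 and HT29 3D replicate 4 have no partner of the same number, so the HT29 effect in the block rests on replicates 1 and 3. The share of all tested genes called with the block is not given here, so a general loss of calls cannot be told apart. Among the HT29 calls not made with the block were those of TPI1 (adjusted p = 0.082), ENO2 (0.077), SLC16A3 (0.071) and PGAM1 (0.07), which are 4 of the 10 members higher in all 4 lines, and the lower call of ENO1 (0.1). With the block HKDC1 was called higher in LS513 (0.043). With an absolute log2 fold change over 1, the members called higher were 3 in HT29, 9 in LS513, 10 in LS174T and 6 in HCT116, and 0 were called lower in each line. With library totals, 2 members were called lower in LS513 and 2 had a higher growth effect in HT29. The higher calls of PFKL in LS513 (edgeR adjusted p = 0.06) and LS174T (0.055) were then not made. Nor were those of TPI1 (0.069) and ENO1 (0.085) in HCT116 and of ENO2 (0.056) and PDK3 (0.13) in LS174T. With all genes kept, 0 were lower in LS513, and the lower call of PFKM in HT29 was not made (edgeR adjusted p = 0.25). The higher calls of PDHA1 in HT29 (0.18), ENO1 in HCT116 (0.077) and PDK3 in LS174T (0.065) were then not made. With only the 6 libraries of the line, 0 were lower in LS174T. The higher calls of ENO1 in HCT116 (0.071) and of PFKL (0.078) and PDK3 (0.062) in LS174T were then not made.

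With each library left out in turn, members called higher ranged from 13 to 18 in HT29, 18 to 21 in LS513, 19 to 22 in LS174T and 15 to 19 in HCT116, and members called lower from 2 to 6, 0 to 2, 0 to 1 and 1 to 1. For the mean over lines the ranges were 25 to 25 higher and 2 to 4 lower. Between 16 and 22 members differed in growth effect between lines, 30 to 31 differed between lines in 2D, and 8 to 13 had a lower growth effect in HT29. The log2 ratio of HK2 to HK1 ranged from 0.14 to 0.21.

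With count + 5, the ratio of SLC2A1 to SLC2A3 was 0.67 (exact permutation test, adjusted p = 2.4e-04) and that of HK2 to HK1 0.18 (adjusted p = 0.046). Without HT29, HK2 to HK1 was 0.32 (adjusted p = 0.0019) and PFKP to PFKL turned from -0.04 to 0.21 (adjusted p = 0.007). Causes were not tested beyond the construction of each alternative. Of single-member values under the alternatives compared, 4178 stayed called or stayed not called, 190 lost the call and 34 gained it. For a contrast within a line, this tally left out only libraries of that line, and the test of lines in 2D was not in it. Leaving out libraries of other lines also changed calls. Without HT29 2D replicate 1, for example, 16 members were called higher in HCT116, against 18 with all libraries. Direction was not compared for values that were called under neither setting. Genes near 0 counts, such as SLC2A3, are limited by depth.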
